A study of Arabidopsis thaliana with 4 samples.

Results

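The salicylic acid defence genes examined here are 7 named loci of *Arabidopsis thaliana*: *EDS1* (AT3G48090), *PAD4* (AT3G52430), *ICS1* (AT1G74710), *NPR1* (AT1G64280), *PR1* (AT2G14610), *PR2* (AT3G57260) and *PR5* (AT1G75040). They were chosen by locus identifier from their known roles, among 32833 genes listed in the count tables. Earlier results of these data were known when they and the gene lists below were chosen, so their counts are descriptions. All 7 passed the filter on low counts that left 21673 genes to test. In all, 4 RNA-seq libraries were compared, 2 from the wild-type Col-0 and 2 from the *mettl4-1* mutant. All seedlings were 14 days old and grew in a 16 h light and 8 h dark cycle, at 22 °C by the sample labels. The paper gives a slightly lower temperature for plants grown for RNA, on agar medium with sucrose. The source label of the libraries gives 8, 9, 10 and 11 h of dark, whereas the growth protocol gives 8 h for each. No infection, elicitor or hormone treatment is named for either genotype, so the values are read as levels without a named treatment. *METTL4* (AT1G19340) encodes an RNA methyltransferase of the MT-A70 family, and *mettl4-1* is a single T-DNA insertion line in the Columbia background with the insertion in the first exon. The deposited values of *mettl4-1* replicate 2 carry the name of another allele, and the sample label was followed. No source says whether the 2 libraries of a genotype came from separate plantings, so the p-values measure the spread between these libraries, which may be technical.

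Salicylic acid is a phenolic hormone that plants make when they are attacked, above all by pathogens that feed on living tissue. In *Arabidopsis* the lipase-like proteins EDS1 and PAD4 form a complex that relays signals from immune receptors, ICS1 makes the chloroplast precursor from which most pathogen-induced salicylic acid derives, and NPR1 binds salicylic acid and acts with TGA transcription factors as a coactivator. The secreted proteins PR1, PR2 and PR5 are outputs of this route, and their transcripts are widely used as its markers, with low levels in healthy seedlings and strong induction after infection.

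The upstream sequences of the 3 marker genes are shown because the results turn on these genes, and because the factors that act with or after NPR1 are known to bind motifs of this kind. Capitals mark TGACG, the core of the site bound by TGA factors, and TTGAC, the core of the W box bound by WRKY factors, searched on both strands, so that CGTCA and GTCAA mark the other strand. The 2 motifs overlap where TTGACG or its reverse occurs. Positions are bases upstream of the annotated start of the gene in RefSeq's TAIR10.1, and the sequences read 5′ to 3′ in the direction of the gene. The distal stretch of *PR1* is chr2:6243084-6243233 on the minus strand, the distal stretch of *PR2* is chr3:21190440-21190589 on the minus strand, and the proximal stretch of *PR5* is chr1:28177420-28177669 on the plus strand. Each distal stretch was picked as the 150 bases with the most motif matches beyond the nearest 250, so its density of matches is no result. The nearest 250 bases, not shown for *PR1* and *PR2*, held 0 TGACG and 1 TTGAC for *PR1* and 0 of either for *PR2*.
PR1, 692 to 543 bases upstream: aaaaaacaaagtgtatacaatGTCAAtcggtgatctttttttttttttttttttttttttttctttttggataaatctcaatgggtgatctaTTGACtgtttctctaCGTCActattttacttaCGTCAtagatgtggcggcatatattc
PR2, 622 to 473 bases upstream: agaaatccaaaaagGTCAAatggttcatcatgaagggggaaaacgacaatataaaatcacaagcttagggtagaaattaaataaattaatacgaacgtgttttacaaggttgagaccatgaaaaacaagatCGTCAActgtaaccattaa
PR5, 250 to 1 bases upstream: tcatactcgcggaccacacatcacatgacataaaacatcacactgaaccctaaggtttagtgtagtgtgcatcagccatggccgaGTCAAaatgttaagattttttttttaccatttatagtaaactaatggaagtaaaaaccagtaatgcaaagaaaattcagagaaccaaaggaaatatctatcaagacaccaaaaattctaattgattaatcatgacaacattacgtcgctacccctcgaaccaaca

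Within 1000 bases upstream, *PR1* held 2 TGACG and 6 TTGAC matches. The 2 TGACG matches of *PR1* began 585 and 568 bases upstream and both lay on the other strand. *PR2* held 2 TGACG and 3 TTGAC matches, of which 2 of each overlapped. *PR5* held 0 TGACG and 3 TTGAC matches, *ICS1* 0 and 2, *PAD4* 0 and 2, *EDS1* 1 and 1, and *NPR1* 0 of either. Over the 27443 genes whose upstream window was read, 54.1% held at least 1 TGACG and 21.3% at least 2, while 88.1% held at least 1 TTGAC, 40.1% at least 3 and 3.9% at least 6. A match describes letters in a window and is not evidence of binding.

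The targeted gene was read first as a check of the labels. *METTL4* had counts of 355 and 413 in the Col-0 libraries and of 35 and 46 in those of *mettl4-1*. It fell to 12.5% of the Col-0 level (log2 fold change -2.99, SE 0.14, n = 2 per genotype, adjusted p = 8.6e-07, edgeR quasi-likelihood, Benjamini-Hochberg adjusted). The libraries held between 50862075 and 66003824 counts. *mettl4-1* replicate 1 held the most, with 2.68% of its counts on organelle genes and 3.65% on the listed 18S ribosomal RNA. *mettl4-1* replicate 2 held 1.03% and 1.25%. Both lay above the Col-0 libraries, which held 0.693 and 0.713% on organelle genes and 0.495 and 0.369% on 18S ribosomal RNA. Leaf mesophyll markers, 4 of 4, fell in *mettl4-1* by an adjusted p under 0.05 in edgeR, and 1 of them was lower at the study's thresholds. Over all genes tested, 1.87% fell by that adjusted threshold. The leaf mesophyll markers summed to 24756 to 24833 CPM in Col-0 and 22453 to 23532 CPM in *mettl4-1*. Here CPM is counts per 1e6 of library size, scaled by edgeR's TMM factor. Of 6 root markers, 0 passed an adjusted p under 0.05 and 1 (*WOX5*) was lower at the study's thresholds. The root markers summed to 97.9 to 99.0 CPM in Col-0 and 100.4 to 100.5 CPM in *mettl4-1*. Seed storage and late embryo markers, 7 of 7, fell by the adjusted threshold, from a summed 75.1 to 76.0 CPM to 2.91 to 3.11 CPM. Senescing leaf markers summed to 5.69 to 5.77 CPM in Col-0 and 5.24 to 5.48 CPM in *mettl4-1*, with *SAG12* at 0 counts in all 4 libraries. Of 4 flower markers, 0 passed an adjusted p under 0.05 and 2 (*AP1* and *PI*) were higher at the study's thresholds. The flower markers summed to 1.27 to 1.35 CPM in Col-0 and 1.98 to 2.31 CPM in *mettl4-1*. The 3 genes *WOX5*, *AP1* and *PI* are named after their values were seen. The part of these markers in the members' results was not tested, and in whole seedlings fewer cells of a type and less RNA per cell cannot be told apart.

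*PR1* fell 1.38-fold in *mettl4-1*, to 72.5% of the Col-0 level, and was the only 1 of the 7 members past an adjusted p under 0.05. The log2 fold changes of the other two marker genes had opposite signs, 0.18 for *PR2* and -0.12 for *PR5*, and neither passed that threshold. The log2 fold change of *ICS1* was -0.12, and those of *EDS1*, *PAD4* and *NPR1*, which act before the markers, lay between -0.0063 and 0.02. With the thresholds of the study (1.5-fold or more and an unadjusted p under 0.05), 0 of 7 members were called with edgeR, and 0 with DESeq2 and with limma-voom. By an unadjusted p under 0.05 alone 2 of 7 passed, *PR1* lower and *PR2* higher, where 8.4% of all genes tested were lower and 6.83% higher by that threshold. Over all genes tested, the study's thresholds called 0.937% higher and 0.683% lower in *mettl4-1*, which are 203 and 148 genes, a split that became 123 higher and 152 lower once organelle and ribosomal RNA genes were removed before normalization. An adjusted p under 0.05 called 0.96% higher and 1.87% lower. These adjusted calls, 208 higher and 406 lower, became 145 and 197 without Col-0 replicate 1, 157 and 220 without Col-0 replicate 2, 389 and 666 without *mettl4-1* replicate 1, and 721 and 1085 without *mettl4-1* replicate 2. The median log2 fold change was -0.0063 over the 7 members and 0.0015 over all genes tested. A design of 2 libraries against 2 allows an exact two-sided permutation test no p below 0.333, so single-gene p-values come from the fit across all genes.

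**Figure D1:**
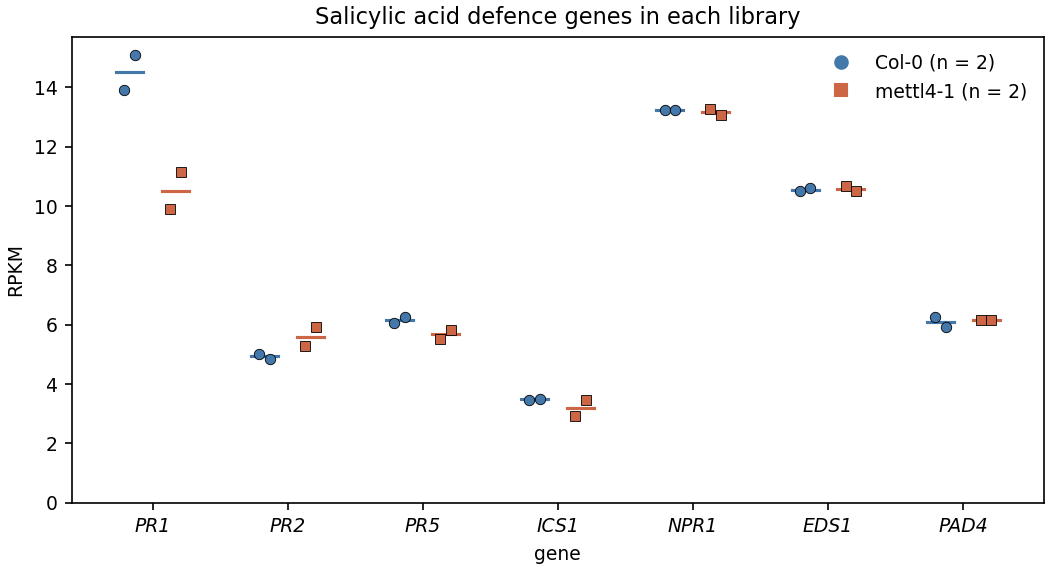
RPKM (CPM per kilobase of exon, vertical axis) of the 7 members, 1 point per library, circles for Col-0 and squares for *mettl4-1*, with a bar at the mean of the 2 libraries. For *PR1* the *mettl4-1* libraries lie at 9.89 and 11.1 RPKM, below both Col-0 libraries at 13.9 and 15.1 RPKM, and the points of *EDS1*, *NPR1* and *PAD4* overlap.

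*EDS1*, on chromosome 3 (17755329 to 17758147, minus strand, TAIR10.1), encodes the hub on which TIR-type immune receptors depend. It had 26.8 and 27.1 CPM in Col-0 and 27.3 and 26.8 CPM in *mettl4-1*. The 2 ranges overlapped, and the log2 fold change was 0.0048 (SE 0.04, 95% interval -0.09 to 0.10, adjusted p = 0.975, edgeR quasi-likelihood, Benjamini-Hochberg adjusted). A tandem copy, AT3G48080, lies 138 bases away and matched 84.4% of the exonic bases of *EDS1* at 83.1% identity. The reads were filtered for high mapping quality before counting, at a threshold that is not given in the sources used here, and whether reads were shared between the 2 loci was not tested. The counts of AT3G48080 were 243 and 328 in Col-0 and 251 and 210 in *mettl4-1*, against 1378 to 1803 counts for *EDS1*. With both loci summed the log2 fold change was -0.0031.

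*PAD4*, on chromosome 3 (19431095 to 19434450, plus strand), encodes the partner of EDS1 that promotes salicylic acid accumulation. It had 14.1 and 13.3 CPM in Col-0 and 13.9 CPM in each *mettl4-1* library. Both *mettl4-1* values lay between the 2 Col-0 values, with a log2 fold change of 0.02 (SE 0.06, 95% interval -0.10 to 0.14, adjusted p = 0.918, edgeR quasi-likelihood, Benjamini-Hochberg adjusted). The interval excludes a change of 1.5-fold in either direction, as it does for *EDS1*.

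*ICS1*, listed by RefSeq as *EDS16*, lies on chromosome 1 (28070295 to 28074177, plus strand) and encodes the isochorismate synthase of the chloroplast. It had 7.58 and 7.63 CPM in Col-0 and 6.39 and 7.58 CPM in *mettl4-1*. Only *mettl4-1* replicate 1 was clearly lower, while replicate 2 was almost level with the lower Col-0 library. The log2 fold change was -0.12 (SE 0.09, 95% interval -0.33 to 0.08, adjusted p = 0.586, edgeR quasi-likelihood, Benjamini-Hochberg adjusted). It was -0.0052 without *mettl4-1* replicate 1 and -0.25 without *mettl4-1* replicate 2, so the estimate rests on 1 library.

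*NPR1*, on chromosome 1 (23852748 to 23855658, minus strand), encodes the receptor and coactivator through which salicylic acid induces the *PR* genes. It had 34.6 CPM in each Col-0 library and 34.7 and 34.2 CPM in *mettl4-1*. The ranges overlapped, and of the 7 members *NPR1* had the narrowest interval (log2 fold change -0.0063, SE 0.04, 95% interval -0.09 to 0.08, adjusted p = 0.962, edgeR quasi-likelihood, Benjamini-Hochberg adjusted). AT1G08667, which overlaps *NPR1* on the other strand, was counted 0 times and 1 time in Col-0 and 1 time in each *mettl4-1* library. *NPR1* itself had 1754 to 2302 counts. AT1G64270 also overlaps *NPR1* on the other strand and is not among the genes listed in the count tables.

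*PR1*, a single exon of 902 bases on chromosome 2 (6241640 to 6242541, minus strand), encodes a small secreted antimicrobial protein of the CAP family. Its counts were 690 and 907 in Col-0 and 451 and 517 in *mettl4-1*, which are 12.5 and 13.6 CPM against 8.92 and 10.0 CPM. Both *mettl4-1* libraries lay below both Col-0 libraries, with a gap wider than the distance between the libraries of either genotype. *PR1* fell from 13.1 ± 0.757 to 9.48 ± 0.795 CPM (SD, n = 2 per genotype; log2 fold change -0.47, SE 0.07, 95% interval -0.63 to -0.30, adjusted p = 0.00765, edgeR quasi-likelihood, Benjamini-Hochberg adjusted). The lower end of that interval lies past the 1.5-fold threshold and the estimate does not reach it. The adjusted p of *PR1* stayed under 0.05 in all 11 alternatives run, between 1.3e-05 and 0.0224, with a log2 fold change of -0.56 to -0.38. No other gene matched the exon of *PR1* in a nucleotide search for close matches (megablast, e-value up to 1e-10), which can miss diverged relatives.

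*PR2*, listed by RefSeq as *BGL2*, lies on chromosome 3 (21188397 to 21189967, minus strand) and encodes a secreted beta-1,3-glucanase that cuts fungal cell wall glucan. It had 7.42 and 7.16 CPM in Col-0 and 7.81 and 8.74 CPM in *mettl4-1*. The ranges did not overlap, and both *mettl4-1* libraries were the higher ones. The log2 fold change was 0.18 (SE 0.08, 95% interval 0.0038 to 0.37), with an unadjusted p of 0.0462 and an adjusted p of 0.318 (edgeR quasi-likelihood, Benjamini-Hochberg). It was 0.26 without *mettl4-1* replicate 1 and 0.10 without *mettl4-1* replicate 2.

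*PR5*, on chromosome 1 (28177670 to 28179022, plus strand), encodes a thaumatin-like antifungal protein. It had 6.64 and 6.85 CPM in Col-0 and 6.03 and 6.39 CPM in *mettl4-1*. The *mettl4-1* libraries were both lower, by a gap of about the size of the spread within a genotype, and the log2 fold change was -0.12 (SE 0.08, 95% interval -0.30 to 0.06, adjusted p = 0.553, edgeR quasi-likelihood, Benjamini-Hochberg adjusted). The log2 fold change of *PR5* was -0.078 without *mettl4-1* replicate 1 and -0.16 without *mettl4-1* replicate 2. AT1G75050 matched 70.2% of the exonic bases of *PR5* at 79.0% identity. Of the 7 members, 3 (*PR1*, *PR5* and *ICS1*) had both *mettl4-1* libraries below both Col-0 libraries and 1 (*PR2*) had both above, whereas 23% of all genes tested lay wholly below and 22.8% wholly above.

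**Figure D2:**
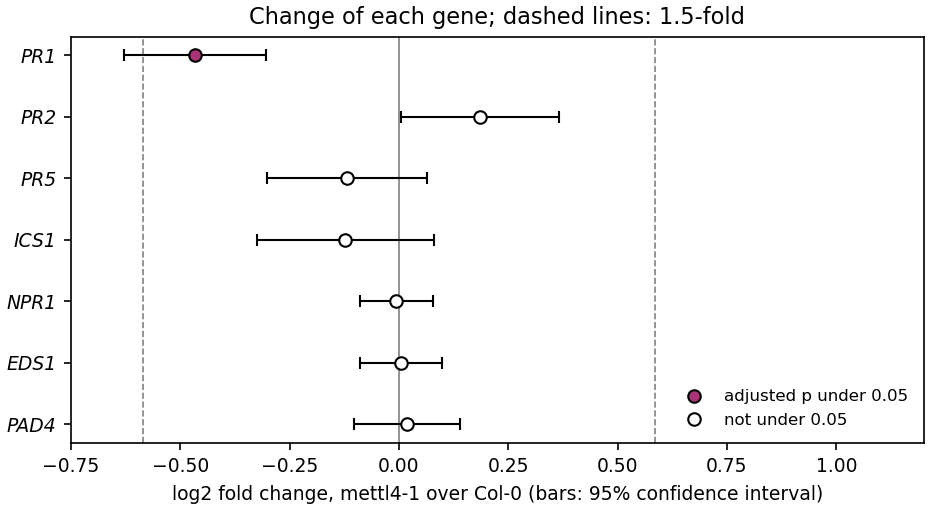
Log2 fold change (*mettl4-1* over Col-0, horizontal axis) of each member with its 95% interval, filled where the adjusted p is under 0.05, and dashed lines at 1.5-fold in either direction. The intervals of *PR1* (-0.63 to -0.30) and *PR2* (0.0038 to 0.37) leave out 0, *PR1* alone is filled, and no estimate reaches a dashed line.

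Per length, with CPM divided by the kilobases of exon (RPKM), the members can be set beside each other. The mean RPKM over the 4 libraries was 13.2 for *NPR1*, 12.5 for *PR1*, 10.6 for *EDS1*, 6.13 for *PAD4*, 5.92 for *PR5*, 5.27 for *PR2* and 3.35 for *ICS1*. *PR1* had the widest range of them, 9.89 to 15.1 RPKM, which overlapped those of *NPR1* and *EDS1*. Neighbours *PAD4* and *PR5*, and *PR5* and *PR2*, overlapped as well, while *EDS1* was above *PAD4* and *PR2* above *ICS1* in every library. In Col-0 the mean level of *PR1*, 14.5 RPKM, exceeded that of *NPR1* at 13.2 RPKM, and in *mettl4-1* it was 10.5 RPKM, beside 10.6 RPKM for *EDS1*. The ratio of *PR2* to *PR1* per exonic base was 0.361 and 0.321 in Col-0 and 0.535 and 0.532 in *mettl4-1*, and that of *PR5* to *PR1* was 0.436 and 0.414 against 0.557 and 0.524. Both ratios were higher in both *mettl4-1* libraries than in either Col-0 library. *PR1* is the denominator of both, so its own fall raises them, and they are not a separate result about *PR2* or *PR5*.

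Around these members, 8 lists of salicylic acid genes, 77 genes with the 7 members included, were read for the same contrast. Of 74 tested, 1 rose and 7 fell by an adjusted p under 0.05, against 0.96% and 1.87% of all genes, and 1 was higher and 1 lower at the study's thresholds. Without the members, 67 were tested, of which 1 rose and 6 fell. Leaving out 1 library gave 5 to 11 that fell and 0 to 4 that rose, with 2 that rose and 11 that fell without *mettl4-1* replicate 1, 4 that rose and 10 that fell without *mettl4-1* replicate 2, and 0 that rose with either Col-0 library left out. At the study's thresholds the 1 lower call became 4 without Col-0 replicate 2, 2 without *mettl4-1* replicate 1, 3 without *mettl4-1* replicate 2 and 0 in DESeq2, and the 1 higher call became 0 without *mettl4-1* replicate 1. The median log2 fold change of the 74 was -0.03, and 48 lay below 0.

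The effector list holds 14 genes grouped here as outputs of salicylic acid, *PR1*, *PR2* and *PR5* among them. Whether salicylic acid induces each of them was not tested. In this list 5 genes fell and 0 rose by an adjusted p under 0.05, where 1.87% of all genes tested fell and 0.96% rose. Of its 14 log2 fold changes 13 were below 0, and the median was -0.21. Over all genes tested, 10682 of 21673 lay below 0. The 5 that fell became 3 without Col-0 replicate 1, 4 without Col-0 replicate 2 and 7 with either *mettl4-1* library left out. Besides *PR1*, the genes that fell were *PCC1*, *GSTF7*, AT5G03350 and *ACD6*, named here after their values were seen. *GSTF7*, a glutathione transferase, had 34.0 and 35.6 CPM in Col-0 and 26.0 and 27.8 CPM in *mettl4-1* (log2 fold change -0.37, adjusted p = 0.00216, edgeR quasi-likelihood, Benjamini-Hochberg adjusted), and 76.3% of its exonic bases matched its neighbour *GSTF6* at 92.8% identity. *PCC1*, a small membrane protein of pathogen and circadian control, had 50.6 and 50.3 CPM against 34.6 and 42.8 CPM, with a log2 fold change of -0.38 that was -0.24 without *mettl4-1* replicate 1 and -0.54 without *mettl4-1* replicate 2. The DESeq2 adjusted p of *PCC1* was 0.307. The lectin family gene AT5G03350, with a log2 fold change of -0.23, had an adjusted p of 0.0925 in edgeR without Col-0 replicate 1. *ACD6*, an ankyrin membrane protein that raises salicylic acid signalling, had a log2 fold change of -0.14 and an adjusted p in edgeR of 0.248 and 0.239 without Col-0 replicates 1 and 2. *PNP-A*, a secreted expansin-like peptide, was the 1 gene of the list past the study's thresholds, at counts of 63 and 80 for Col-0 and 30 and 44 for *mettl4-1* (log2 fold change -0.69). Its adjusted p by edgeR was 0.164, and without *mettl4-1* replicate 1 its log2 fold change was -0.46 with an unadjusted p of 0.112.

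**Figure D3:**
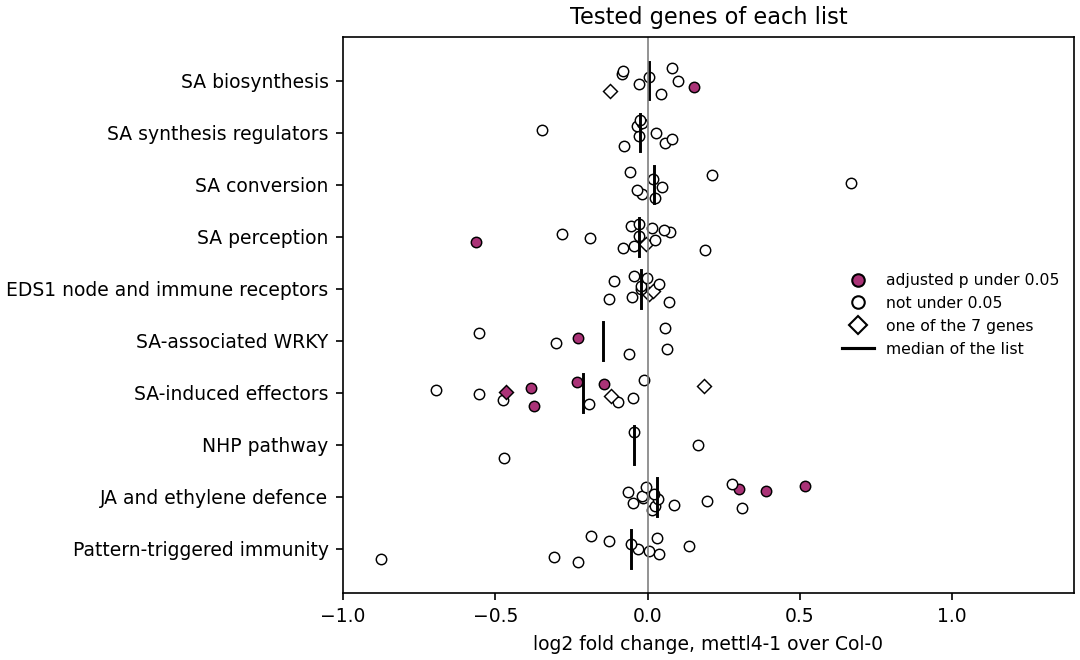
Log2 fold change (*mettl4-1* over Col-0, horizontal axis) of every tested gene in 10 lists (vertical axis), 1 point per gene, diamonds for the 7 members, filled where the adjusted p is under 0.05, with a bar at the median of each list. In the list labelled as salicylic acid induced effectors 13 of 14 points lie left of 0. In the jasmonic acid and ethylene list 3 of 16 rose and 0 fell by an adjusted p under 0.05. Over all genes tested, 0.96% rose and 1.87% fell by that threshold.

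Over all genes tested, 1.87% fell and 0.96% rose by an adjusted p under 0.05. Among genes of salicylic acid perception, 1 of 14 tested fell and 0 rose by that threshold. It was *TGA7*, a bZIP factor of the family that binds TGACG and NPR1, counted 1430 and 1678 times in Col-0 and 909 and 859 times in *mettl4-1*. Both *mettl4-1* libraries were well below both Col-0 libraries. *TGA7* fell by 0.56 on the log2 scale (SE 0.05, adjusted p = 0.000238, edgeR quasi-likelihood, Benjamini-Hochberg adjusted), and its adjusted p stayed under 0.05 in all 11 alternatives. The closest match to its exons covered 45.6% of their bases at 77.9% identity. Of 6 salicylic acid associated WRKY genes tested out of 8, 1 fell, *WRKY70*, a factor that acts downstream of NPR1 and represses jasmonic acid genes. *WRKY70* had 23.8 and 24.6 CPM in Col-0 and 20.7 and 20.6 CPM in *mettl4-1* (log2 fold change -0.23, adjusted p = 0.0268, edgeR quasi-likelihood, Benjamini-Hochberg adjusted). Without Col-0 replicate 2 its adjusted p was 0.125, and the DESeq2 value was also 0.125. Over the 11 alternatives the count of 1 in this list lay between 0 and 3, and it differed from 1 in 6 of them.

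The lists on the side of synthesis and upstream signalling held few calls, where an adjusted p under 0.05 called 0.96% of all genes tested higher and 1.87% lower. Of 9 synthesis genes, 1 rose, *PAL1*, a phenylalanine ammonia-lyase at the entry of the other route to salicylic acid, with 579 and 570 CPM in Col-0 and 646 and 632 CPM in *mettl4-1* (log2 fold change 0.15, adjusted p = 0.00867, edgeR quasi-likelihood, Benjamini-Hochberg adjusted). Its adjusted p was 0.0822 and 0.154 without Col-0 replicates 1 and 2, and the count of 1 became 2 with either *mettl4-1* library left out. Of 9 regulators of synthesis 0 passed the adjusted threshold with all 4 libraries, and the smallest p was that of *CBP60g*, a calmodulin-binding activator of *ICS1*, with 9.88 and 10.2 CPM in Col-0 and 8.57 and 7.23 CPM in *mettl4-1* (log2 fold change -0.35, adjusted p = 0.0613, edgeR quasi-likelihood, Benjamini-Hochberg adjusted). *CBP60g* passed without *mettl4-1* replicate 1 (log2 fold change -0.47, adjusted p = 0.00123 in edgeR), with no filter on low counts (0.0148) and with organelle and ribosomal RNA genes removed (0.0116), and without *mettl4-1* replicate 2 its log2 fold change was -0.23 with an adjusted p of 0.13. The count of regulators that rose became 1 without *mettl4-1* replicate 2. Of 11 genes of the EDS1 node and its receptors 0 passed in either direction, with *SAG101*, the other partner of EDS1, at the smallest p and a log2 fold change of -0.11. Of 8 tested genes that convert salicylic acid, *DLO1* (AT4G10500), a hydroxylase of salicylic acid, was past the study's thresholds, at counts of 56 and 63 for Col-0 and 85 and 74 for *mettl4-1*. Its log2 fold change of 0.67 had an adjusted p of 0.105 by edgeR and was 0.55, under the 1.5-fold threshold, without *mettl4-1* replicate 1. Without *mettl4-1* replicate 2 it was 0.78 with an adjusted p of 0.0424 in edgeR. The *N*-hydroxypipecolic acid list had 3 genes and 0 adjusted calls, with *FMO1* at 58 and 83 counts against 45 and 40.

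Jasmonic acid and ethylene defence genes, whose route often opposes that of salicylic acid, were read as the comparison list. Of 16 tested out of 18, 3 rose and 0 fell by an adjusted p under 0.05, where 0.96% of all genes tested rose and 1.87% fell. The median log2 fold change of the list was 0.03. *VSP2*, a jasmonic acid induced vegetative storage protein with acid phosphatase activity, had 38.3 and 38.7 CPM in Col-0 and 48.4 and 52.5 CPM in *mettl4-1* (log2 fold change 0.39, adjusted p = 0.000576, edgeR quasi-likelihood, Benjamini-Hochberg adjusted). The other two genes that rose, named after their values were seen, were *VSP1*, which matched *VSP2* over 96.3% of its exonic bases at 86.7% identity, with a log2 fold change of 0.30, and the defensin *PDF1.2a* with 0.52. Both *VSP* genes kept an adjusted p under 0.05 in all 11 alternatives, while *PDF1.2a* had 0.114 and 0.0634 without Col-0 replicates 1 and 2 in edgeR and 0.106 in DESeq2. Of 11 genes of pattern-triggered immunity 0 passed the adjusted threshold, and *FRK1*, a receptor kinase induced by flagellin, was past the study's thresholds at counts of 64 and 58 for Col-0 and 30 and 26 for *mettl4-1* (log2 fold change -0.87, adjusted p = 0.111, edgeR quasi-likelihood, Benjamini-Hochberg adjusted). Without Col-0 replicate 1 its unadjusted p was 0.0604. A difference between the salicylic acid lists and this list was not tested.

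**Figure D4:**
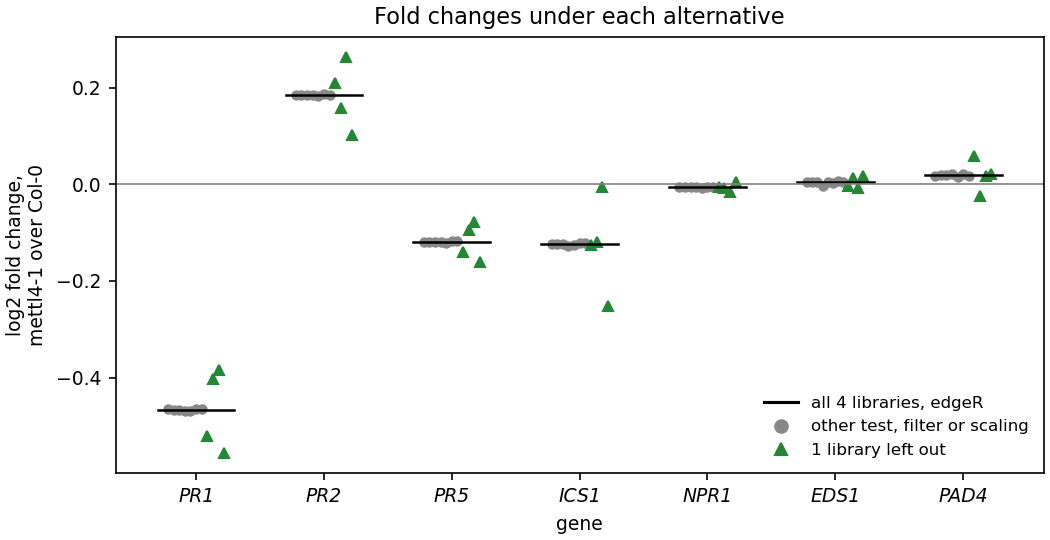
Log2 fold change (*mettl4-1* over Col-0, vertical axis) of the 7 members with all 4 libraries in edgeR (bar), under another test, filter or scaling (circles) and with 1 library left out (triangles). *PR1* stays between -0.56 and -0.38, and the values of *EDS1*, *NPR1* and *PAD4* lie on both sides of 0.

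Among 19271 genes of at least 1 CPM, the patterns most like that of *PR1* over the 4 libraries, by Euclidean distance between centred log2 CPM values, were those of AT3G22235 at 0.0596, *PCR1* at 0.0626 and *COR15B* at 0.0731. Their log2 fold changes were -0.48, -0.41 and -0.42. AT3G22235 is also the closest exonic match of *PCC1*, covering 47.5% of the exonic bases of *PCC1* at 97.8% identity, and whether reads of these genes were shared was not tested. Within a distance of 0.1 lay 7 genes for *PR1*, 369 for *PR2* and 2777 for *PR5*. The distance is not scaled, so a gene with a larger fold change has fewer near genes, and these counts are no separate result. The nearest to *PR2* were AT3G58150, AT5G45720 and AT1G54790, and the nearest to *PR5* were *WLIM1*, AT5G14910 and AT5G27390. With 4 libraries such likeness is a description and carries no test.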

How the data were processed

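The authors trimmed reads with Cutadapt 3.5, mapped them to TAIR10 with HISAT2 2.2.1, kept those of high mapping quality with SAMtools 1.13 and deposited whole-number counts per gene from featureCounts 2.0.1, and they tested with DESeq2 1.32.0. How high that quality had to be, which annotation release was used, and how strand, multiple matches and overlaps were treated when counting, which bear on duplicated genes, are not given in the sources used here. Genotypes come from the labels. The values of *mettl4-1* replicate 2 carry another allele name and repeat the column name of replicate 1. The labels were followed, and the 2 libraries hold different values.

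From these counts, edgeR 4.0.16 in R 4.3.3 gave TMM size factors, a filter on low counts (filterByExpr, minimum 10) and the quasi-likelihood test (glmQLFit, glmQLFTest) of a model whose single term is genotype. Adjusted p-values are Benjamini-Hochberg values over all 21673 genes tested, and fold changes are *mettl4-1* over Col-0. Totals of 50862075 to 66003824 counts put a floor of 3 counts at 0.0455 to 0.0590 CPM, for counting error only. Alternatives were DESeq2 1.42.0, limma-voom (limma 3.58.1), other size factors, filters and thresholds, removal of 289 organelle and ribosomal RNA genes, a replicate block and each library left out. On simulated data, changes of 0.5 on the log2 scale were recovered in 94% of 100 genes and changes of 1 in 99%. In the same simulation 21 unchanged genes were called by an adjusted p under 0.05. The changes were placed only in genes of about 100 counts or more per library, with the spread fitted from these data. The spread and the test both came from edgeR, so the simulation cannot show whether that spread is right.

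Names, positions, exons and upstream sequence come from RefSeq's TAIR10.1, where 32548 of 32548 nuclear genes were found. One upstream stretch is not reported here. *BSMT1*, *WRKY38*, *WRKY62*, *ERF1* and *THI2.1* did not pass the filter. The members and lists were chosen with earlier results of these data known. Besides the members, *METTL4* and AT3G48080, the text names in each list up to 5 genes called at the study's thresholds, or the single smallest p where none was, the 3 most alike genes of each *PR* gene, and genes overlapping a member. Outside this rule, *PCC1*, *GSTF7*, AT5G03350, *ACD6*, *VSP1*, *PDF1.2a* and 3 marker genes were named after their values were seen.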

Additional observations from a re-analysis of the deposited data

How the results depend on the processing

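Over 11 alternatives *PR1*, *TGA7*, *GSTF7*, *VSP1* and *VSP2* kept direction and an adjusted p under 0.05. *PR2*, *PR5* and *ICS1* kept direction and did not pass it, and the 3 members nearest 0 changed sign: *EDS1* at -0.0031 with AT3G48080 summed and -0.0080 to 0.017 with 1 library left out, *NPR1* at -0.017 to 0.0045 and *PAD4* at -0.025 to 0.059. Genes called at the study's thresholds, 203 higher and 148 lower, became 68 and 70 with the adjusted p, 208 and 406 with the adjusted p and no fold threshold, 123 and 91 at 2-fold, 121 and 85 in DESeq2, 178 and 76 with at least 10 counts in every library, 123 and 152 with organelle and ribosomal RNA genes removed, and 186 to 260 and 147 to 184 with 1 library left out. With no fold threshold, 1 member (*PR1*) was called lower. Adjusted calls, 208 higher and 406 lower, became 98 higher in DESeq2, 338 higher with no filter, 625 lower with organelle and ribosomal RNA genes removed, and 145 to 721 higher and 197 to 1085 lower with 1 library left out. In the salicylic acid lists the adjusted calls, 1 higher and 7 lower, became 11 lower with no filter, 2 higher and 11 lower with organelle and ribosomal RNA genes removed, and 0 to 4 higher and 5 to 11 lower with 1 library left out. The cause of these moves was not tested.

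Replicate numbers do not show that libraries are paired: the replicate differences correlated at -0.02 over 19164 genes. With the replicate block, 191 genes were higher and 138 lower at the study's thresholds, 258 and 426 by adjusted p, the log2 fold change of *PR1* was -0.46, and *CBP60g* had an adjusted p of 0.0446. By a chi-square test of counts, which covers counting error only (adjusted p under 0.05), 162 of 21599 nuclear genes differed between the Col-0 libraries and 2620 of 21345 between the *mettl4-1* libraries. That test scaled by library totals and not by TMM factors, which were 1.005 and 1.009 in Col-0 and 0.974 and 1.012 in *mettl4-1*. The part of a shift in library composition in these counts was not tested. The members had 305 to 2302 counts each.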
